A study of Mus musculus with 48 samples.

Results

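The comparison described here follows KAT6A knockout mouse embryonic stem cells from day 2 to day 6 of a neuronal differentiation, with 3 RNA libraries at day 6 and 3 at day 2, out of 48 libraries in the series. The 6 libraries were taken by their column names in the raw count table, and every gene of that table entered: of 36935 genes, 20653 had enough counts to be tested. Both groups carry the KAT6A-/- genotype in the E14 embryonic stem cell line. The number of clones behind the knockout line is not given in the sources used here. At day 2 the cells had grown as embryoid bodies, floating cell clusters, without the self-renewal cytokine LIF and in serum. At day 6 they were still embryoid bodies and had also been exposed to 10 µM all-trans retinoic acid, which the protocol adds from day 4. Whether day 6 cells were collected before or after the day 6 change of medium is not given in the sources used here. The series also holds days 0 and 15 (undifferentiated cells, and cells plated in neuronal medium from day 8) and 3 other genotypes: KAT6B knockout, KAT6A/B double knockout and unmodified E14. The design text states that the 3 replicates come from 3 independent differentiation experiments.

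KAT6A and its paralog KAT6B are MYST-family lysine acetyltransferases that work in complexes with BRPF scaffold proteins and acetylate histone H3. Embryonic stem cells that leave the naive state pass through a formative, epiblast-like state before they take up germ layer fates. Retinoic acid binds nuclear receptors (RAR with RXR) on DNA, switches on its own degrading enzymes and the 3′ Hox genes, and directs embryoid bodies to neural progenitors with a hindbrain and spinal character. The time between day 2 and day 6 thus spans both the exit from pluripotency and the first days of retinoic acid.

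The targeted gene was read first. Kat6a (GRCm39 chromosome 8, 23349551 to 23433275, plus strand) had 111, 94.0 and 125 CPM (counts scaled to library size by trimmed means, TMM) at day 6, against 65.4, 73.0 and 59.7 CPM at day 2. Its transcript count therefore rose within the knockout, by 0.74 ± 0.12 on the log2 scale (SE, edgeR adjusted p = 0.000257). Scaled together with the other genotypes, the KAT6A knockout had 69.6, 78.4 and 62.8 CPM at day 2, against 139, 142 and 143 CPM in E14. At day 6 it had 120.5, 101 and 139 CPM, against 169, 166 and 206.5 CPM in E14. The knockout libraries thus lay below E14 at both days without overlap, and still held many Kat6a reads. The altered part of the gene is not named in the labels, so a whole-gene count does not show whether the protein is made. Kat6b had 129, 104 and 106 CPM at day 6, against 259.7, 221 and 219 CPM at day 2, and fell by 1.05 ± 0.12 on the log2 scale (edgeR adjusted p = 1.98e-05).

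Total counts were 35.2, 42.5 and 40.6 M (mega counts) in the day 6 libraries and 35.7, 38.8 and 43.6 M in the day 2 libraries. At this depth the spread between replicates, a biological coefficient of variation of 24.1% over the knockout time course, set the precision. Mitochondrial transcripts took 1.12% to 1.63% of counts at day 6 and 1.47% to 3.02% at day 2. The first principal component of the 12 knockout libraries (61.6% of the variance) placed the day 6 libraries at 8.81, 7.57 and 31.9 and the day 2 libraries between -107 and -101, so that day 6 replicate 3 stood somewhat apart from its group. The median log2 change over all tested genes was 0.03.

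Similar numbers of genes rose and fell. At an edgeR adjusted p under 0.05, 9471 genes were called, 45.9% of those tested: 4766 (23.1%) were higher at day 6 and 4705 (22.8%) were lower. The 3 day 6 values and the 3 day 2 values did not overlap for 11644 genes (56.4%). These shares are the background against which the gene groups below are to be read. In bulk RNA, fewer cells of a type and less RNA per cell cannot be told apart.

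The largest increases among genes with at least 5 CPM were in Hox genes, in early hindbrain and mesoderm regulators, and in products of yolk sac and embryonic blood. Fgb, a fibrinogen chain made by liver and yolk sac, had 12.1, 29.0 and 4.51 CPM at day 6 and no count at day 2, at least 581-fold higher against a floor of 3 counts over the day 2 group (edgeR adjusted p = 0.000119). By the same measure Hoxa2 was at least 388-fold higher, the embryonic globins Hba-x and Hbb-y at least 251-fold and 236-fold, and Emcn, an endothelial sialomucin, at least 237-fold. Nr2f1, an orphan nuclear receptor induced by retinoic acid, had 29.8, 38.4 and 66.1 CPM at day 6, against 0.0291, 0 and 0.0730 CPM at day 2. Foxd2, a forkhead factor, had 6.34, 8.61 and 18.9 CPM at day 6, against 0, 0.0255 and 0 CPM at day 2. The other members of this top 10 were Hoxa5, Hoxb3 and Hoxc5, described below. The 3 day 6 libraries were not alike in all of them: Hba-x ran from 0.105 CPM in replicate 2 to 17.6 CPM in replicate 3, and Hbb-y from 0.251 to 16.3 CPM in the same libraries. Without day 6 replicate 3 their log2 changes were 8.50 for Hba-x, 8.52 for Hbb-y and 10.06 for Emcn, in place of 11.14, 11.04 and 11.05. Without day 6 replicate 2 that of Fgb was 11.46 in place of 12.34. The call of Hbb-y was lost when only the 6 libraries were fitted (edgeR adjusted p = 0.114). For genes near 0 at day 2, single libraries also moved the change. Foxd2 went to 11.92 without day 2 replicate 2 and 9.32 without day 6 replicate 3, from 9.92. Nr2f1 went to 11.40 without day 2 replicate 3, from 10.21.

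The largest decreases were in genes of the early epiblast and of Nodal signalling. Trh, the gene of thyrotropin-releasing hormone, had 8.04, 4.95 and 4.68 CPM at day 6, against 758, 675 and 777 CPM at day 2, and fell by 6.97 ± 0.35 on the log2 scale (edgeR adjusted p = 5.59e-08). Platr10, a long noncoding RNA of pluripotent cells, had 1.09, 0.919 and 0.824 CPM at day 6, against 87.6, 91.1 and 98.4 CPM at day 2. Both fell with little spread between replicates. Foxd3, a forkhead factor of pluripotent cells and later of neural crest, had 0.488, 0.397 and 0.103 CPM at day 6, against 26.7, 33.8 and 31.8 CPM at day 2, and fell by 6.55 ± 0.39. Foxi3, a forkhead factor of ectoderm, had 0.581, 0.690 and 0.288 CPM at day 6, against 8.04, 22.8 and 12.2 CPM at day 2. Fgf5, T, Lefty2, Fgf8, Lefty1 and Tdgf1 completed the 10 and are given with their groups.

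**Figure D1:**
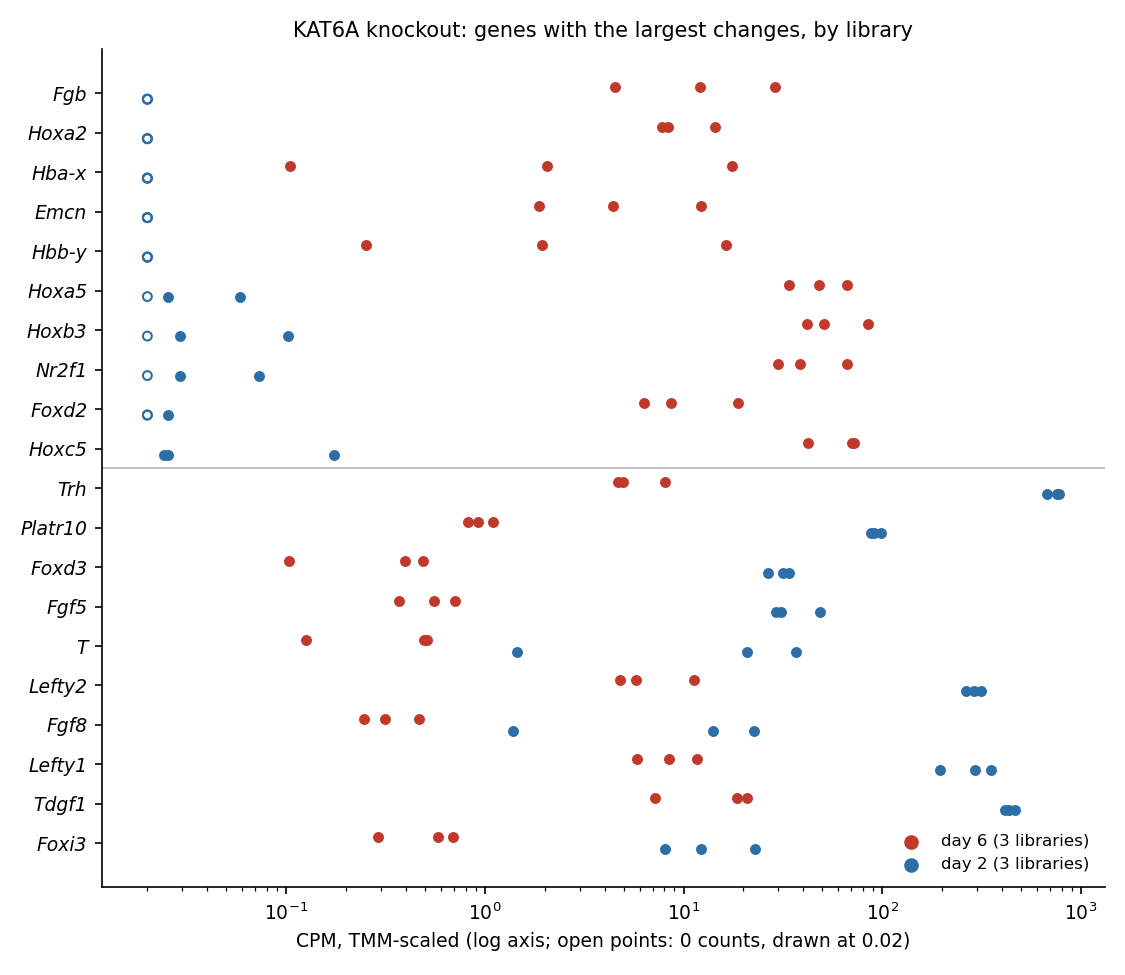
TMM-scaled CPM on a log axis for the 10 genes with the largest increases (top) and the 10 with the largest decreases (bottom), with 1 point per library, day 6 in red and day 2 in blue. Open points had 0 counts and are drawn at 0.02. For T and Fgf8 a single day 2 library (replicate 2) lies near the day 6 values, at 1.46 and 1.38 CPM.

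Of 12 genes of retinoic acid synthesis, binding and breakdown, 8 were higher and 0 lower, with a median log2 change of 2.27. Cyp26b1, an enzyme that oxidises retinoic acid, had 265, 234 and 467 CPM at day 6, against 0.641, 0.7405 and 0.754 CPM at day 2, a log2 change of 8.81 ± 0.42 (edgeR adjusted p = 4.26e-08). Its paralog Cyp26a1 had 525, 649.5 and 366 CPM at day 6, against 13.1, 13.6 and 7.64 CPM at day 2, a log2 change of 5.49 ± 0.32 (edgeR adjusted p = 1.1e-07). Both enzymes were thus far above day 2 in every day 6 library. Crabp2, which carries retinoic acid to the nucleus, had 139, 278 and 148 CPM at day 6, against 5.15, 8.22 and 7.15 CPM at day 2. Aldh1a1, a retinaldehyde dehydrogenase, had 2.14, 9.45 and 5.38 CPM at day 6, against 0.146, 0.0255 and 0.122 CPM at day 2, with a log2 change of 5.83 that was 5.24 without day 6 replicate 2. Dhrs3, which turns retinaldehyde back to retinol, rose by 4.62, Crabp1 by 2.22 and the retinol dehydrogenase Rdh10 by 1.23. The principal embryonic synthesis enzyme Aldh1a2 was not called (log2 change 0.63), nor were Aldh1a3 (-1.39) and Cyp26c1 (0.74).

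Of 11 retinoid receptors, coregulators and uptake genes, 6 were higher and 2 lower, with a median log2 change of 0.93. Rarb, the receptor gene induced by its own ligand, had 66.4, 78.3 and 104 CPM at day 6, against 0.291, 0.434 and 0.438 CPM at day 2, a log2 change of 7.72 ± 0.35 (edgeR adjusted p = 2.62e-08). Stra8, a retinoic acid response gene needed for entry into meiosis, had 557, 536 and 407 CPM at day 6, against 4.78, 3.60 and 3.70 CPM at day 2. Stra6, the cellular retinol importer, had 35.1, 42.9 and 53.2 CPM at day 6, against 1.14, 1.43 and 1.65 CPM at day 2. None of these 3 genes overlapped between days. Nrip1, a ligand-dependent corepressor, rose by 3.07 ± 0.17, Rxra by 1.13 and Rara by 0.93, while Rarg fell by 0.69 and Rxrg fell by 1.49. Rxrb (0.05) and Ncor1 (-0.16) were not called.

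Rarb and Cyp26a1 are textbook examples of a retinoic acid response element close to the start of transcription, so their upstream sequences are shown here. The element searched was a direct repeat of 6-base cores separated by 5 bases, on either strand. A core was AGGTCA, its variant with T as the third letter (AGTTCA), or either of these with G as the first letter. Among windows of 300 bases (250 before and 50 after each start, RefSeq, GRCm38.p6), it was found in 32 of 32851, or 0.0974%. Of the 74 retinoid and Hox genes listed here 46 had a window, and 2 of these, Rarb and Cyp26a1, held the repeat. A repeat with 2 bases between the cores was in 0.268% of all windows and in 0 of those of the 46 genes. The 250 bases before each start follow, 5′ to 3′ on the gene's strand, with the repeat in capitals. It lies 32 to 16 bases before the start in Cyp26a1 (chr19:37697558-37697807, plus strand, repeat read on the minus strand) and 53 to 37 bases before it in Rarb (chr14:16575477-16575726, minus strand).
Cyp26a1: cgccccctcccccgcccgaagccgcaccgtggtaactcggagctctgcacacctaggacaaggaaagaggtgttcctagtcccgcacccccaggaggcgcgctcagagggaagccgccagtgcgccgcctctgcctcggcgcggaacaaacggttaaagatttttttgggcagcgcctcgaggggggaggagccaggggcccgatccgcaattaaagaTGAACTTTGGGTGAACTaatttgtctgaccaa
Rarb: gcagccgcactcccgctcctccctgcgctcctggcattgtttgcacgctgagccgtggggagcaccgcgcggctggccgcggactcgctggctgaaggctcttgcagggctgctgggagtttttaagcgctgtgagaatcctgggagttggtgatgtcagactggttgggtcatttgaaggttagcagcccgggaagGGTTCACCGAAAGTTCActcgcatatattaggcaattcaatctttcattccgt
The match is a description of these windows and no measurement of binding. Of the 11 tested genes with the repeat, 4 were higher (Rarb, Cyp26a1, Hbb-y and the platelet chemokine gene Ppbp) and 2 lower (Blvrb and Gm1043), and their median log2 change was -0.19.

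The Hox genes, which give cells their position along the head-to-tail axis, rose in all 4 clusters. In the HoxA cluster all 9 tested members of 11 were higher, in the HoxB cluster all 10, and in the HoxC and HoxD clusters 11 of 12 tested members of 18. The median log2 changes were 7.27 (6.87 with genes at 0 set to their bound), 7.89 and 3.93. Hoxa5 had 33.8, 48.1 and 66.2 CPM at day 6, against 0.0582, 0.0255 and 0 CPM at day 2. Hoxb3 had 41.8, 51.1 and 84.5 CPM at day 6, against 0.0291, 0.102 and 0 CPM at day 2. Hoxc5 had 42.3, 72.5 and 70.0 CPM at day 6, against 0.175, 0.0255 and 0.0243 CPM at day 2. In each of these genes day 6 replicate 1 was the lowest of its group, and day 2 was at or near 0 in every library. Hoxd4 had 12.9, 23.3 and 30.4 CPM at day 6, against 0.0874, 0.102 and 0.0487 CPM at day 2, a log2 change of 8.09 ± 0.48 (edgeR adjusted p = 9.22e-08). Within the clusters the change was large for paralogs 2 to 6 of HoxA and 1 to 6 of HoxB (7.27 for Hoxa6, 8.11 for Hoxb1, 9.04 for Hoxb6) and smaller toward the 5′ end (3.39 for Hoxa7, 2.54 for Hoxb9, 1.86 for Hoxd9). Among the most 5′ genes Hoxa10 rose by 4.62, and Hoxa13, with no count at day 2, was at least 14.1-fold higher, although both stayed under 1 CPM at day 6. Hoxd13 was not called (log2 change 1.63). Hoxa9, Hoxa11, Hoxc8, Hoxc11, Hoxc12, Hoxd10, Hoxd11 and Hoxd12 had too few counts to be tested, between 1 and 25 in the 3 day 6 libraries together. With day 2 near 0, leaving out a day 2 library moved these changes: Hoxa5 from 10.72 to 11.65 without replicate 1, Hoxb3 from 10.31 to 11.83 without replicate 2 or 9.70 without replicate 3, Hoxb6 from 9.04 to 9.70 without replicate 2, and Hoxc5 from 9.72 to 11.11 without replicate 1. The calls of these 4 genes held in each of these fits.

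**Figure D2:**
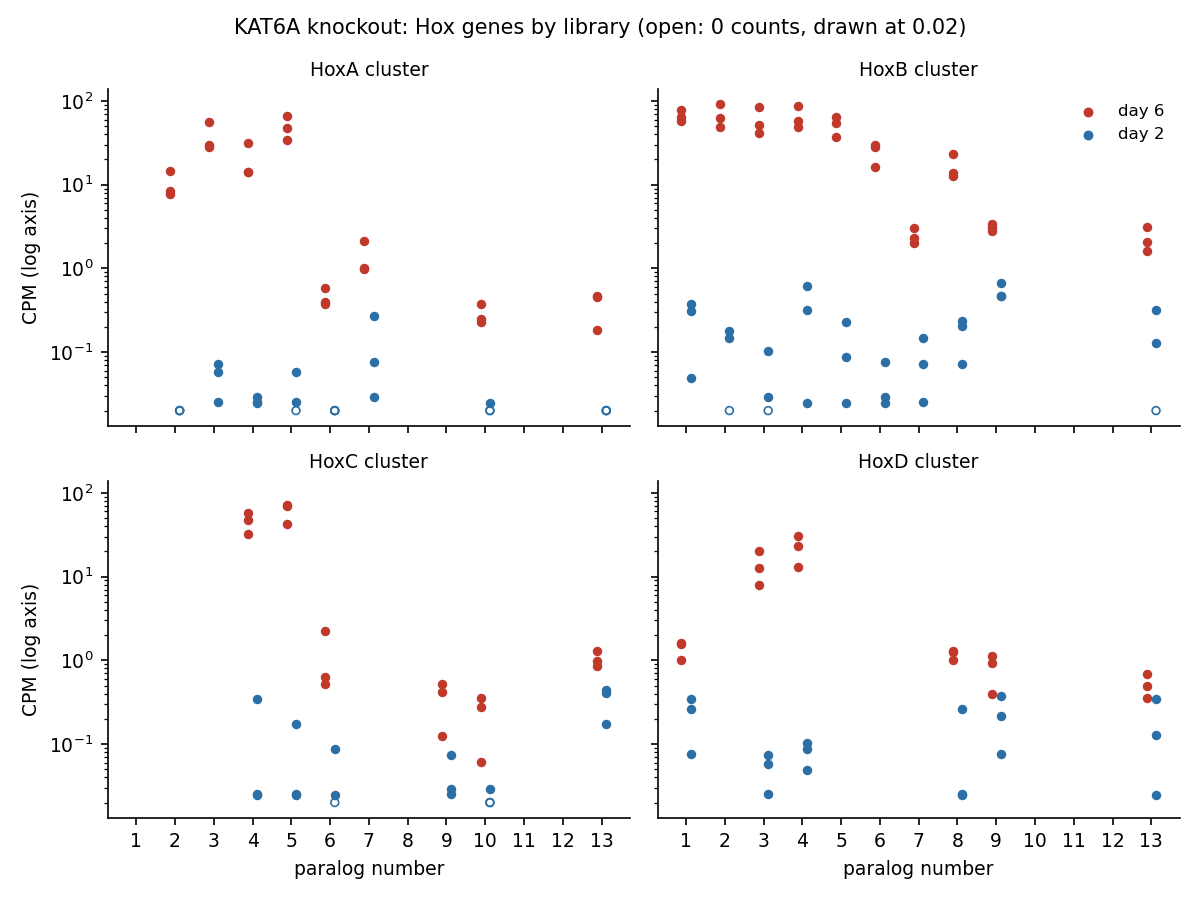
TMM-scaled CPM on a log axis against paralog number for tested genes of the 4 Hox clusters in the KAT6A knockout, 1 point per library, day 6 in red to the left and day 2 in blue to the right. Levels are not corrected for transcript length. For paralogs 2 to 5 of HoxA and 1 to 5 of HoxB every day 2 value is under 1 CPM, and the lowest day 6 value is 7.78 CPM (Hoxa2).

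Partners of Hox proteins changed with them. Of 12 Hox cofactors and Cdx factors, 8 were higher and 2 lower. Meis1, a TALE homeodomain cofactor, had 156, 191 and 274 CPM at day 6, against 1.98, 2.04 and 2.00 CPM at day 2, a log2 change of 6.69 ± 0.30 (edgeR adjusted p = 2.62e-08). Meis2 had 129, 120.0 and 241 CPM at day 6, against 1.49, 4.24 and 2.41 CPM at day 2. Both were higher in every day 6 library by a wide margin. Pknox2 rose by 3.29 and Pbx2 by 1.95. Cdx1, a caudal-type regulator of Hox genes, had 19.2, 13.96 and 13.6 CPM at day 6, against 0.9901, 0.0766 and 0.195 CPM at day 2, with a log2 change of 5.24 that was 6.80 without day 2 replicate 1. Cdx2 was not called (-0.42), and Cdx4 had no count at day 6 against 0.0874, 0.179 and 0.243 CPM at day 2, at least 7.89-fold lower.

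Pluripotency genes fell in the naive, the shared and the formative sets alike. Of 16 naive pluripotency genes, 13 were lower and 1 higher (Tbx3, by 0.78), with a median log2 change of -1.85. Zfp42 (Rex1) had 33.8, 34.7 and 28.1 CPM at day 6, against 377, 304 and 298 CPM at day 2. Nr0b1 (Dax1) had 4.81, 2.70 and 3.05 CPM at day 6, against 82.1, 93.1 and 64.9 CPM at day 2. These groups were far apart, with a drop of 3.34 ± 0.22 and of 4.51 ± 0.30 on the log2 scale. Esrrb had 79.8, 45.3 and 42.7 CPM at day 6, against 367.5, 301.5 and 240 CPM at day 2. Klf2, Klf5, Nanog and Prdm14 fell by 1.59, 1.52, 2.04 and 2.29, while Klf4 (-0.58) and Tet2 (0.12) were not called. Of 12 core pluripotency genes, 11 were lower and 0 higher, with a median of -2.32. Pou5f1 (Oct4) fell by 3.29 and Sox2, which neural progenitors also use, fell by 1.89. Tdgf1, the Nodal co-receptor, had 20.8, 18.5 and 7.17 CPM at day 6, against 413, 435 and 464.5 CPM at day 2. Tdh, the threonine dehydrogenase of mouse stem cells, had 29.0, 46.4 and 17.5 CPM at day 6, against 554, 390 and 407 CPM at day 2. Day 6 replicate 3 was the lowest of its group for both Tdgf1 and Tdh. Lin28a, an RNA-binding protein, fell only by 0.90 and Trim71 was not called (-0.52).

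Of 12 formative and primed epiblast genes, 8 were lower and 2 higher (Cdh2 and Sox3), with a median of -2.41. Fgf5, a marker of the formative epiblast, had 0.5575, 0.7105 and 0.371 CPM at day 6, against 29.1, 31.0 and 48.5 CPM at day 2, a fall of 6.04 ± 0.44 (edgeR adjusted p = 5.06e-07). Dnmt3b, a de novo DNA methyltransferase, had 56.2, 64.1 and 45.9 CPM at day 6, against 917, 791 and 1005 CPM at day 2. Otx2 had 6.67, 8.57 and 2.06 CPM at day 6, against 123, 131 and 160 CPM at day 2, and Pou3f1 fell by 4.18 ± 0.41. All 4 genes were well separated between days. Zic2 fell by 2.66, Lef1 by 2.16 and Dnmt3a by 0.66.

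Nodal pathway and primitive streak genes had the lowest median of the 38 lists, -4.42: 13 of 14 were lower, 0 higher, and Tbx6 was not called (0.71). Lefty1, a secreted Nodal inhibitor, had 11.7, 5.81 and 8.45 CPM at day 6, against 194.5, 351 and 293 CPM at day 2. Lefty2 had 11.3, 4.76 and 5.79 CPM at day 6, against 288, 265 and 315 CPM at day 2. Nodal itself fell by 2.20 and the streak regulators Mixl1 and Eomes by 3.82 and 2.82. The day 2 libraries differed among themselves in streak genes. T (brachyury) had 0.511, 0.125 and 0.4945 CPM at day 6, against 37.0, 1.46 and 20.9 CPM at day 2. Fgf8 had 0.465, 0.313 and 0.247 CPM at day 6, against 22.7, 1.38 and 14.01 CPM at day 2. Day 2 replicate 2 was the lowest day 2 library for T and Fgf8, and for Mesp1 (0.0766 CPM, against 1.51 and 0.414 CPM in replicates 1 and 3), Wnt8a (1.71 CPM, against 11.5 and 12.2) and Cer1 (0.485 CPM, against 3.03 and 3.19). The groups still did not overlap for T and Fgf8. Without day 2 replicate 1 the change of T was -4.89 in place of -5.71, that of Fgf8 -4.49 in place of -5.21 and that of Mesp1 -4.62 in place of -6.03. Without day 6 replicate 1 that of Mesp1 was -7.83 and that of Cer1 -9.58 in place of -7.78, since the other day 6 libraries had no count of either.

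FGF ligands and feedback genes fell in the main, 6 of 11 lower and 2 higher. Fgf4 had 10.2, 9.49 and 4.88 CPM at day 6, against 118, 126 and 98.6 CPM at day 2. Etv5, a transcription factor downstream of FGF, had 49.1, 33.7 and 34.4 CPM at day 6, against 591, 446 and 484 CPM at day 2. Fgf15 and Spry4 fell by 3.80 ± 0.40 and 3.03 ± 0.38. The 2 that rose were the receptors Fgfr1 (0.76) and Fgfr3 (2.36). DNA methylation enzymes fell in 7 of 10 cases, with Tet3, a 5-methylcytosine oxidase, the single member that rose (2.05). Tet1 had 145, 130 and 141 CPM at day 6, against 756, 545 and 617 CPM at day 2. Dnmt3l, the cofactor of the de novo methyltransferases, fell by 2.67 ± 0.38, Dnmt3c by 3.55 ± 0.54 and Uhrf1 by 0.74, and Dnmt1 was not called (0.27). Of 13 germline genes, 3 were higher and 4 lower (2 lower without day 6 replicate 3). Dazl, an RNA-binding protein of germ cells, had 29.6, 22.3 and 23.4 CPM at day 6, against 7.22, 7.89 and 9.20 CPM at day 2, and Kit rose by 1.46, whereas the meiotic axis gene Sycp3 fell by 1.74.

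**Figure D3:**
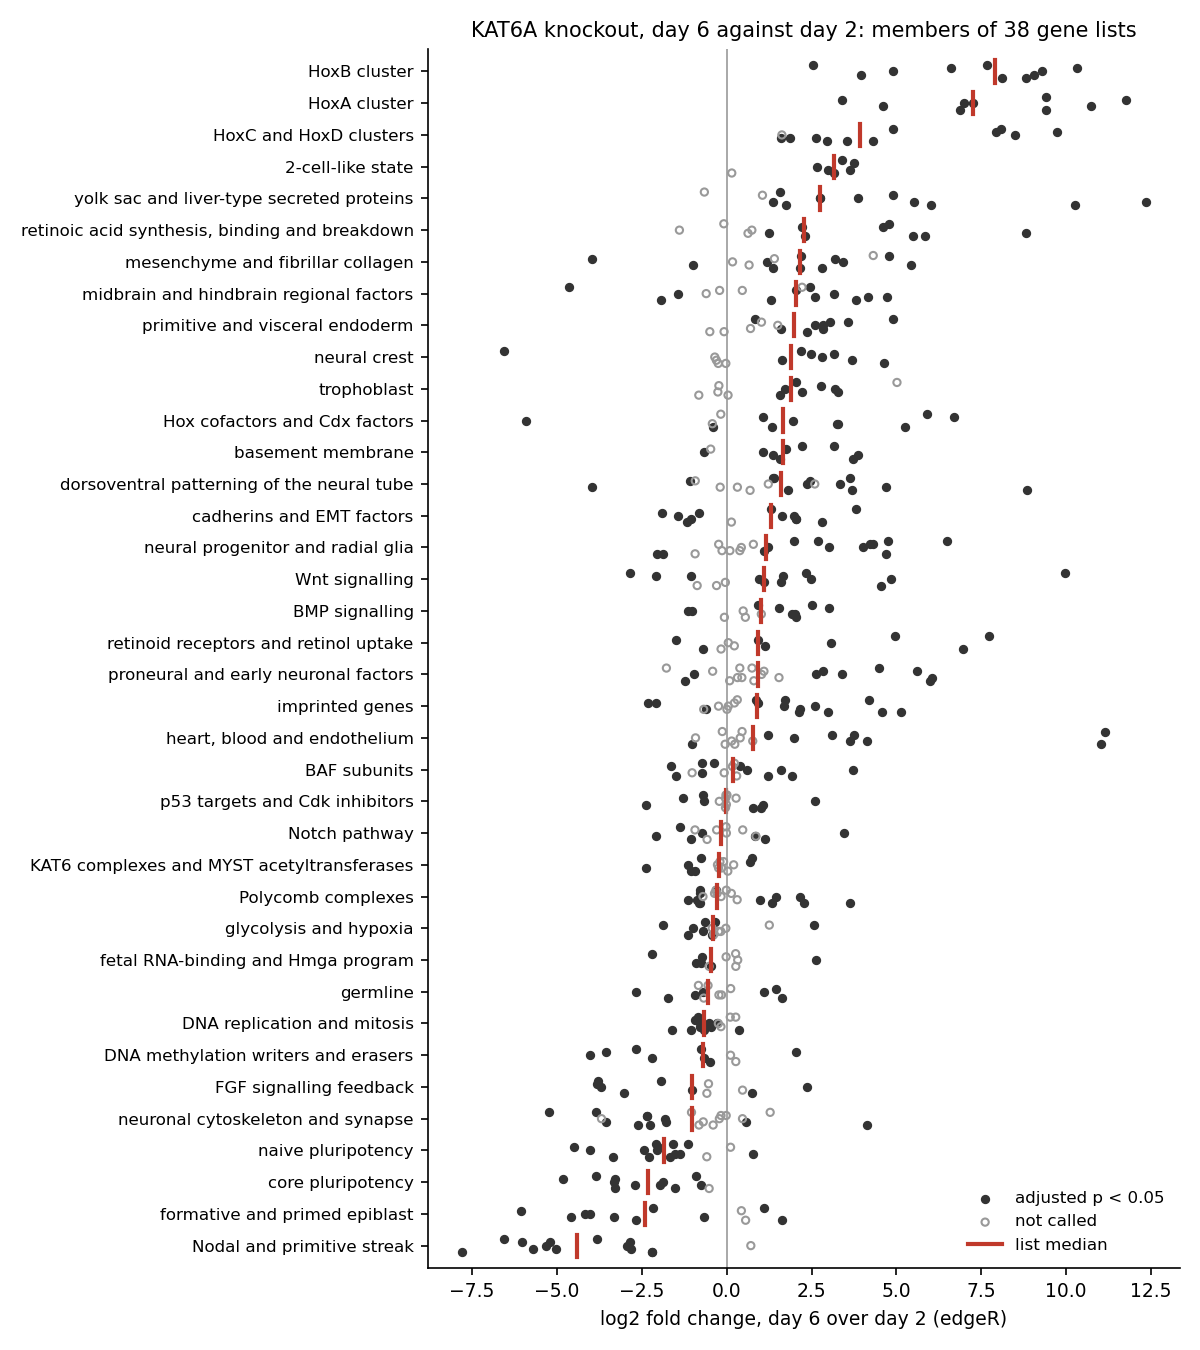
log2 change, day 6 over day 2, of each tested member of the 38 gene lists, ordered by list median from the highest (top) to the lowest, with called members filled, other members open and the median as a red bar. The 3 Hox lists lie highest (7.89, 7.27 and 3.93) and the Nodal and primitive streak list lowest (-4.42).

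Neural progenitor regulators rose while general progenitor markers did not move as a block. Of 20 neural progenitor and radial glia genes, 11 were higher and 2 lower (Sox2 and Ncan), with a median log2 change of 1.16. Pax6, a regulator of neural progenitors, had 36.0, 60.6 and 70.3 CPM at day 6, against 1.63, 4.01 and 2.68 CPM at day 2, a log2 change of 4.32 ± 0.35 (edgeR adjusted p = 1.07e-06). Zbtb16 had 23.9, 33.1 and 36.6 CPM at day 6, against 0.961, 1.74 and 0.7785 CPM at day 2. The POU factor Pou3f2 (Brn2) had 6.25, 9.61 and 12.9 CPM at day 6, against 0.0291, 0.281 and 0 CPM at day 2, with a log2 change of 6.48 that ran from 5.88 without day 2 replicate 3 to 9.21 without day 2 replicate 2. For all 3 genes replicate 1 was the lowest day 6 library. Sox1, Sox9, Lhx2 and Hes5 rose by 2.70, 4.00, 4.21 and 3.02. The intermediate filament genes Nes (0.39) and Vim (0.79), the Notch target Hes1 (0.10) and Fabp7 (-0.93) were not called.

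Of 18 tested genes of 19 that pattern the neural tube from dorsal to ventral, 10 were higher and 2 lower. Dbx1, of intermediate progenitors, had 12.8, 16.7 and 23.4 CPM at day 6, against 0.0291, 0.0766 and 0 CPM at day 2, with a log2 change of 8.86 that was 10.08 without day 2 replicate 2. Irx3 had 24.2, 32.1 and 39.6 CPM at day 6, against 1.22, 1.38 and 1.07 CPM at day 2. Genes of the neighbouring domains rose too: dorsal Pax7, Pax3 and Msx1 rose by 3.69, 3.63 and 1.39, and ventral Nkx6-1 and Foxa2 by 3.34 and 2.37. The change of Pax7 was 4.62 without day 2 replicate 2. Shh, the ventral signal, was not called (2.60), and neither were Ptch1 (-0.19) and Gli1 (-0.92), its usual targets. Nkx2-2 was low at both days, and its call was lost without day 2 replicate 2 (edgeR adjusted p = 0.0956), day 6 replicate 2 (0.079) or day 6 replicate 3 (0.0798). Its log2 change was -3.96, -3.23 without day 2 replicate 2 and -7.05 without day 6 replicate 1. Olig2 had 29 counts over the day 6 libraries and 6 over day 2, too few to be tested.

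Of 15 regional factors of forebrain, midbrain and hindbrain, 8 were higher and 3 lower. Pax2 had 3.46, 3.41 and 5.56 CPM at day 6, against 0.291, 0.281 and 0.122 CPM at day 2. The hindbrain factor Gbx2 rose by 2.61, while Egr2 (Krox20) fell by 1.94. Fgf17 fell by 4.64 ± 0.47, and the fall was 5.29 without day 6 replicate 1. Of the forebrain genes, Emx2 rose by 4.73 (6.25 without day 2 replicate 2), and Six3 was not called (2.22).

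Of 20 proneural and early neuronal factors, 7 were higher and 2 lower, with a median of 0.92. Ebf3, a helix-loop-helix factor of young neurons, had 2.90, 2.63 and 5.13 CPM at day 6, against 0.0874, 0.255 and 0.122 CPM at day 2. Nhlh2 had 1.37, 0.794 and 1.88 CPM at day 6, against 0, 0.0255 and 0.0243 CPM at day 2. Day 6 replicate 3 was the highest library for both. Neurog1 and Neurog2 rose by 2.63 and 2.85 and Nhlh2 and Ebf3 by 6.05 and 4.48, whereas Neurod1 fell by 1.23 and 11 of the 20 were not called.

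Of 21 neuronal cytoskeleton and synapse genes, 9 were lower and 2 higher, with a median of -1.03 (-0.81 with genes at 0 set to their bound). Stmn2, a tubulin-binding protein of growing axons, had 7.99, 7.75 and 6.57 CPM at day 6, against 135, 86.7 and 102 CPM at day 2, a fall of 3.86 ± 0.37 (edgeR adjusted p = 5.1e-06). Ina, an intermediate filament protein, had 8.41, 6.77 and 6.12 CPM at day 6, against 103, 70.4 and 78.6 CPM at day 2. Tubb3 fell by 2.60 and Snap25 by 2.35. These neuronal genes were therefore well expressed in the day 2 embryoid bodies. The microtubule protein Dcx went the other way, with 3.95, 2.80 and 6.78 CPM at day 6, against 0.408, 0.281 and 0.0973 CPM at day 2. Map2 and Mapt were not called (-0.21 and -0.01).

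Of 14 Notch pathway genes, 3 were higher and 4 lower. Dll4 rose by 3.45 ± 0.61 (2.73 without day 6 replicate 3), Dll3 fell by 2.08 ± 0.33 and Hes6 by 1.39 ± 0.17. Hey1 rose by 1.14, a call lost without day 2 replicate 2 (edgeR adjusted p = 0.0562), day 2 replicate 3 (0.0668) or day 6 replicate 3 (0.12). Of 12 neural crest genes, 7 were higher and 1, Foxd3, was lower. Twist1 had 13.0, 11.1 and 19.7 CPM at day 6, against 1.22, 0.894 and 1.27 CPM at day 2. Sox10 had 7.27, 6.83 and 7.56 CPM at day 6, against 1.08, 0.511 and 0.8515 CPM at day 2. Tfap2b rose by 4.64 (5.90 without day 2 replicate 3) and Snai2 by 2.80. Twist1 and Snai2 are shared with mesenchyme.

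Signals of the BMP and Wnt families rose in part. Of 13 BMP genes, 7 were higher and 2 lower (Bmp4 and Smad7). Bmp7 had 25.3, 28.3 and 28.3 CPM at day 6, against 5.48, 4.44 and 4.43 CPM at day 2. The ligands Bmp2 and Bmp5 rose by 2.00 and 3.01 and the antagonist Nog by 2.05. Single libraries moved these changes: Bmp2 was 2.67 and Nog 2.80 without day 2 replicate 1, and Bmp5 was 2.30 without day 6 replicate 3. The Nog call was lost with no filter on low counts (edgeR adjusted p = 0.0544). Of 15 Wnt genes, 9 were higher and 3 lower (Wnt8a, Rspo1 and Sp5). Sfrp5, a secreted Wnt antagonist, had 43.6, 43.5 and 53.1 CPM at day 6, against 1.69, 1.76 and 1.46 CPM at day 2, a log2 change of 4.83 ± 0.24 (edgeR adjusted p = 4.26e-08). The dorsal ligands Wnt1 and Wnt3a came up, Wnt1 with 1.05, 5.25 and 2.45 CPM at day 6 and no count at day 2, at least 111-fold higher. Wnt1 changed by 9.96 and by 9.21 without day 6 replicate 2, and Wnt3a by 4.56 and by 5.16 without day 2 replicate 1. The feedback target Axin2 was not called (-0.30).

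Genes outside the neural lineage rose as well, and several of those given below differed widely between the day 6 libraries. Of 14 primitive and visceral endoderm genes, 9 were higher and 0 lower. Gata6 had 66.4, 85.2 and 73.4 CPM at day 6, against 6.61, 8.35 and 3.99 CPM at day 2. Foxa1 had 11.6, 10.6 and 23.1 CPM at day 6, against 0.175, 0.817 and 0.4865 CPM at day 2. Sox17 rose by 2.84 and Sox7 by 3.03 (4.29 without day 2 replicate 2). Of 13 tested yolk sac and liver-type genes of 14, 11 were higher and 0 lower (7 higher without day 6 replicate 2). Afp, alpha-fetoprotein, had 29.2, 69.5 and 7.09 CPM at day 6, against 0.175, 1.38 and 0.0730 CPM at day 2. Apoa1 had 37.7, 56.5 and 13.1 CPM at day 6, against 0.466, 1.56 and 0.316 CPM at day 2. Replicate 2 was the highest and replicate 3 the lowest for Afp and Apoa1 at both days. Without day 2 replicate 2 the log2 change of Afp was 8.16 and without day 6 replicate 2 it was 5.05, around 6.01, and that of Apoa1 was 6.52 in place of 5.51 without day 2 replicate 2. Spp2 had no count at day 2 and was at least 136-fold higher, with a log2 change of 10.25 that was 9.52 without day 6 replicate 2.

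Of 10 basement membrane genes, which parietal endoderm makes in quantity, 8 were higher and 1 lower (Fn1). Their summed level was 6546, 10100 and 4622 CPM at day 6, against 3050, 2903 and 2113 CPM at day 2, with no overlap. Col4a1 had 1033, 1943 and 613 CPM at day 6, against 83.2, 141 and 50.5 CPM at day 2, a log2 change of 3.71 ± 0.47 (edgeR adjusted p = 4.41e-05). Lama1 had 748, 1567 and 352 CPM at day 6, against 90.3, 158 and 51.2 CPM at day 2, with a log2 change of 3.16 that was 2.46 without day 6 replicate 2. In both genes replicate 2 was highest and replicate 3 lowest at day 6 and at day 2. Col4a2 rose by 3.86 and Sparc by 2.23.

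Mesenchyme and blood genes took the opposite order at day 6. Of 15 mesenchyme and fibrillar collagen genes, 9 were higher and 2 lower (Thy1 and Cnn1). Col3a1 had 37.5, 12.5 and 135 CPM at day 6, against 3.79, 1.48 and 1.58 CPM at day 2. Prrx1 had 7.30, 4.49 and 24.6 CPM at day 6, against 0.349, 0.230 and 0.268 CPM at day 2. Of 17 tested heart, blood and endothelium genes of 18, 8 were higher (5 without day 6 replicate 3) and 1, Pecam1, was lower. Cdh5, the endothelial cadherin, had 10.4, 2.65 and 33.3 CPM at day 6, against 1.02, 0.894 and 0.754 CPM at day 2. Tal1, a blood and endothelial regulator, had 6.48, 2.15 and 17.1 CPM at day 6, against 1.05, 0.102 and 0.7785 CPM at day 2. Replicate 3 was the highest and replicate 2 the lowest day 6 library for Col3a1, Prrx1, Cdh5 and Tal1. All 4 calls held without day 6 replicate 3, with log2 changes of 3.47, 4.38, 2.88 and 2.75 in place of 4.77, 5.42, 4.12 and 3.74. Col1a1 rose by 3.43, and by 4.04 without day 2 replicate 1. Kdr and Hand2 rose by 3.65 and 3.10. Tbx5 was not tested, with 121 counts at day 6 and 0 at day 2. The cardiac genes Nkx2-5 (0.45), Tnnt2 (0.77) and Actc1 (0.24) were not called.

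The defining markers, 4 for each cell type, were also summed over each library. The 4 endoderm markers (Gata4, Sox17, Afp, Ttr) summed to 110, 208 and 74.8 CPM at day 6, against 13.5, 25.8 and 7.44 CPM at day 2. The 4 mesenchyme markers (Col1a1, Col3a1, Prrx1, Twist2) summed to 219.5, 104 and 470.0 CPM at day 6, against 34.7, 11.9 and 15.5 CPM at day 2. The 4 blood and endothelium markers (Tal1, Gata1, Kdr, Cdh5) summed to 63.8, 20.0 and 191 CPM at day 6, against 9.32, 6.23 and 8.64 CPM at day 2. Among the day 6 libraries replicate 2 was highest for the endoderm markers and replicate 3 for those of mesenchyme, blood and endothelium. Summed over the whole lists, the days overlapped for some of these cell types. The primitive and visceral endoderm genes came to 1034, 1606 and 543.6 CPM at day 6, against 405.6, 1056 and 451.1 CPM at day 2. The yolk sac and liver-type secreted proteins came to 470.3, 646 and 222.5 CPM at day 6, against 306.5, 482.6 and 319.9 CPM at day 2, so day 6 replicate 3 was below every day 2 library. The heart, blood and endothelium genes came to 160.6, 99.4 and 359 CPM at day 6, against 147.9, 146.2 and 157.7 CPM at day 2, with day 6 replicate 2 below every day 2 library. The 4 neural progenitor markers (Sox1, Pax6, Nes, Hes5) summed to 118, 143 and 201 CPM at day 6, against 59.2, 86.2 and 77.0 CPM at day 2. Summed over the whole neural progenitor and radial glia list, however, the days overlapped. That list came to 757, 744.2 and 1055 CPM at day 6, against 787.9, 740.6 and 690.5 CPM at day 2. The 4 neuron markers (Tubb3, Map2, Stmn2, Elavl3) summed to 35.7, 35.4 and 33.0 CPM at day 6, against 208, 159 and 174 CPM at day 2. The 4 pluripotency markers (Pou5f1, Nanog, Zfp42, Tdgf1) summed to 174, 169 and 121 CPM at day 6, against 1647, 1399 and 1479 CPM at day 2. Each of these markers had a count in at least 1 library of each day. The part of these cell types in the other gene changes was not tested. Of the 3062 genes that rose and had at least 5 CPM in the higher group, 1603 were highest in day 6 replicate 3, 789 in replicate 2 and 670 in replicate 1.

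Of 13 cadherin and epithelial-mesenchymal transition genes, 7 were higher and 5 lower. Cdh1 (E-cadherin) fell by 1.16 and Epcam, Esrp1 and Grhl2 by 1.06, 1.43 and 1.90, while Cdh2 (N-cadherin), Zeb1, Zeb2 and Snai1 rose by 1.64, 2.03, 1.97 and 1.31. Cdh6 had 25.2, 35.9 and 37.1 CPM at day 6, against 3.47, 1.30 and 2.29 CPM at day 2. Cdh11 rose by 2.03, but without day 6 replicate 3 the change was 1.01 and the call was lost (edgeR adjusted p = 0.127), as it was with no filter, with 6 and with 24 libraries. Of 12 trophoblast genes, 7 were higher and 0 lower, among them the keratins Krt7, Krt8 and Krt18, which other epithelia also express. Krt7 had 40.8, 67.4 and 41.6 CPM at day 6, against 4.92, 5.77 and 4.57 CPM at day 2. Gata3 and Gata2 rose by 2.77 and 3.18. Elf5 rose by 2.21, a call lost without day 2 replicate 2 (edgeR adjusted p = 0.0606) or day 6 replicate 2 (0.118). The defining genes Plet1 (-0.23), Ascl2 (-0.82) and Tead4 (0.04) were not called, and the 4 trophoblast markers (Hand1, Plet1, Elf5, Ascl2) summed to 17.3, 20.4 and 12.3 CPM at day 6, against 13.5, 9.52 and 8.17 CPM at day 2.

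The paralogs Kat6a and Kat6b moved in opposite directions, and all 3 JADE scaffold genes fell. Of the 14 members in a list of KAT6 complex and MYST enzyme genes, 2 were higher (Kat6a and Ing4) and 5 lower. Jade2, a scaffold of the KAT7 complex, had 17.1, 15.4 and 13.7 CPM at day 6, against 70.6, 82.7 and 88.6 CPM at day 2, a fall of 2.39 ± 0.16 (edgeR adjusted p = 3.12e-07). Jade1 and Jade3 fell by 0.93 and 1.15, and Ing5 by 0.74. Brpf1, Brpf3, Brd1, Kat5, Kat7, Kat8 and Meaf6 had changes between -0.27 and 0.21 and were not called. Of 21 Polycomb genes, 6 were higher and 7 lower, with members of both complexes in each direction. Eed, Suz12, Jarid2 and Mtf2 of PRC2 fell by 0.87, 0.80, 1.15 and 0.79, and Ezhip, a PRC2 inhibitor, rose by 1.33. Of PRC1, Cbx2, Cbx8, Ring1 and Bmi1 rose by 0.99, 3.64, 1.45 and 2.28, while Cbx7, Pcgf6 and Rybp fell by 0.78, 0.80 and 0.32. Ezh2 was not called (-0.01). Cbx8 had 5.23, 6.81 and 5.36 CPM at day 6, against 0.786, 0.409 and 0.219 CPM at day 2.

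Of 16 BAF chromatin remodelling subunits, 6 were higher and 5 lower. The ATPase Smarca2 (BRM) had 35.2, 36.1 and 48.1 CPM at day 6, against 3.52, 3.35 and 2.24 CPM at day 2, a log2 change of 3.71 ± 0.20 (edgeR adjusted p = 6.12e-08), and its paralog Smarca4 (BRG1) was not called (0.17). Smarcd3 and Smarcc2 rose by 1.61 and 1.23. Dpf1 fell by 1.64, and Dpf3 rose by 1.92, a call lost without day 2 replicate 2 (edgeR adjusted p = 0.0672) or day 6 replicate 3 (0.0801). Of 11 genes of the fetal RNA-binding and Hmga program, 1 was higher and 5 lower (3 lower without day 6 replicate 1 or 2). Hmga2 had 70.9, 59.9 and 150.4 CPM at day 6, against 24.02, 6.84 and 15.0 CPM at day 2, whereas Hmga1 fell by 0.76 and Mycn by 2.20 ± 0.17.

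Of 20 imprinted genes, 11 were higher and 3 lower (Snrpn, Magel2 and Igf2r). H19, a noncoding RNA, had 3112, 3132 and 3106 CPM at day 6, against 200, 177 and 136 CPM at day 2. Its neighbour Igf2, a fetal growth factor, had 532, 772 and 1089 CPM at day 6, against 24.7, 25.99 and 17.2 CPM at day 2, a log2 change of 5.14 ± 0.36 (edgeR adjusted p = 4.25e-07). Peg3 had 1626, 1458 and 3187 CPM at day 6, against 314.5, 215 and 255 CPM at day 2. Airn, the antisense RNA at Igf2r, rose by 4.58 while Igf2r fell by 0.60. The libraries were made strand-specific, but the strand setting of the counting is not given in the sources used here, so reads of overlapping genes such as Airn and Igf2r may not be fully apart. Meg3, Rian and Mirg of the Dlk1 domain were not called (0.31, -0.24 and -0.68), although Dlk1 rose by 2.59.

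Cell cycle and metabolic genes changed modestly. Of 18 DNA replication and mitosis genes, 13 were lower and 1, Aurkb, was higher, with a median of -0.67. Ccne1 had 50.4, 54.8 and 47.5 CPM at day 6, against 175, 118 and 171 CPM at day 2, and Pcna and Mcm7 fell by 1.04 and 0.93. Mki67 was not called (0.27). Of 15 p53 targets and Cdk inhibitors, 4 were higher and 4 lower. Trp53 itself had 135, 109 and 166.5 CPM at day 6, against 417, 281 and 295 CPM at day 2, Pmaip1 fell by 2.38, and Cdkn2c and Cdkn2b rose by 2.60 and 1.06, while the targets Cdkn1a (-0.22), Mdm2 (-0.02) and Ccng1 (-0.01) were not called. Of 14 glycolysis and hypoxia genes, 7 were lower (4 without day 6 replicate 3 or day 2 replicate 1) and 1, Vegfa, was higher. Pdk1 had 102, 118 and 110.4 CPM at day 6, against 372.5, 401 and 440.5 CPM at day 2, and Eno1 and Ldha fell by 1.13 and 0.98. Vegfa, an angiogenic growth factor, had 138.5, 149 and 123 CPM at day 6, against 27.3, 24.9 and 17.4 CPM at day 2. Of 7 tested genes of the 2-cell-like state, which a small share of stem cells enters, 6 were higher and 0 lower. Zscan4d had 10.7, 8.55 and 8.22 CPM at day 6, against 1.43, 1.12 and 0.5595 CPM at day 2. Zscan4c, Zscan4f and Zfp352 rose by 3.40, 3.64 and 3.74 (Zfp352 by 5.20 without day 2 replicate 2). Zscan4 genes are near-identical copies, so the split of reads among them is uncertain.

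Set against days 0 and 15 of the same knockout, the change between days 2 and 6 was part of a longer course for many genes and passing for others. Of the 3062 genes that rose and reached 5 CPM, 2006 (65.5%) had their highest mean at day 15 and 957 (31.3%) at day 6, and 209 (6.83%) were at day 15 more than 4-fold below their day 6 mean. Stra8 averaged 10.9, 4.02, 500.2 and 2.69 CPM at days 0, 2, 6 and 15, and Cyp26b1 0.697, 0.712, 322 and 4.80 CPM. Of the 4 days sampled, both genes were thus high at day 6 alone, and low again at day 15 in neuronal medium. The series holds no day 6 libraries without retinoic acid, so its effect cannot be told apart from that of time. Col4a1 averaged 105, 91.6, 1197 and 15700 CPM over the same days. Of the 3926 genes that fell and had reached 5 CPM, 2527 (64.4%) were lowest at day 15 and 1340 (34.1%) at day 6, and 438 (11.2%) were at day 15 at or above their day 2 mean. Stmn2 averaged 181.5, 108, 7.44 and 159 CPM at days 0, 2, 6 and 15, and Ina 143, 83.8, 7.10 and 124 CPM. For these neuronal genes day 6 was the low point. Fgf5 averaged 3.74, 36.2, 0.546 and 1.16 CPM and was highest at day 2.

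**Figure D4:**
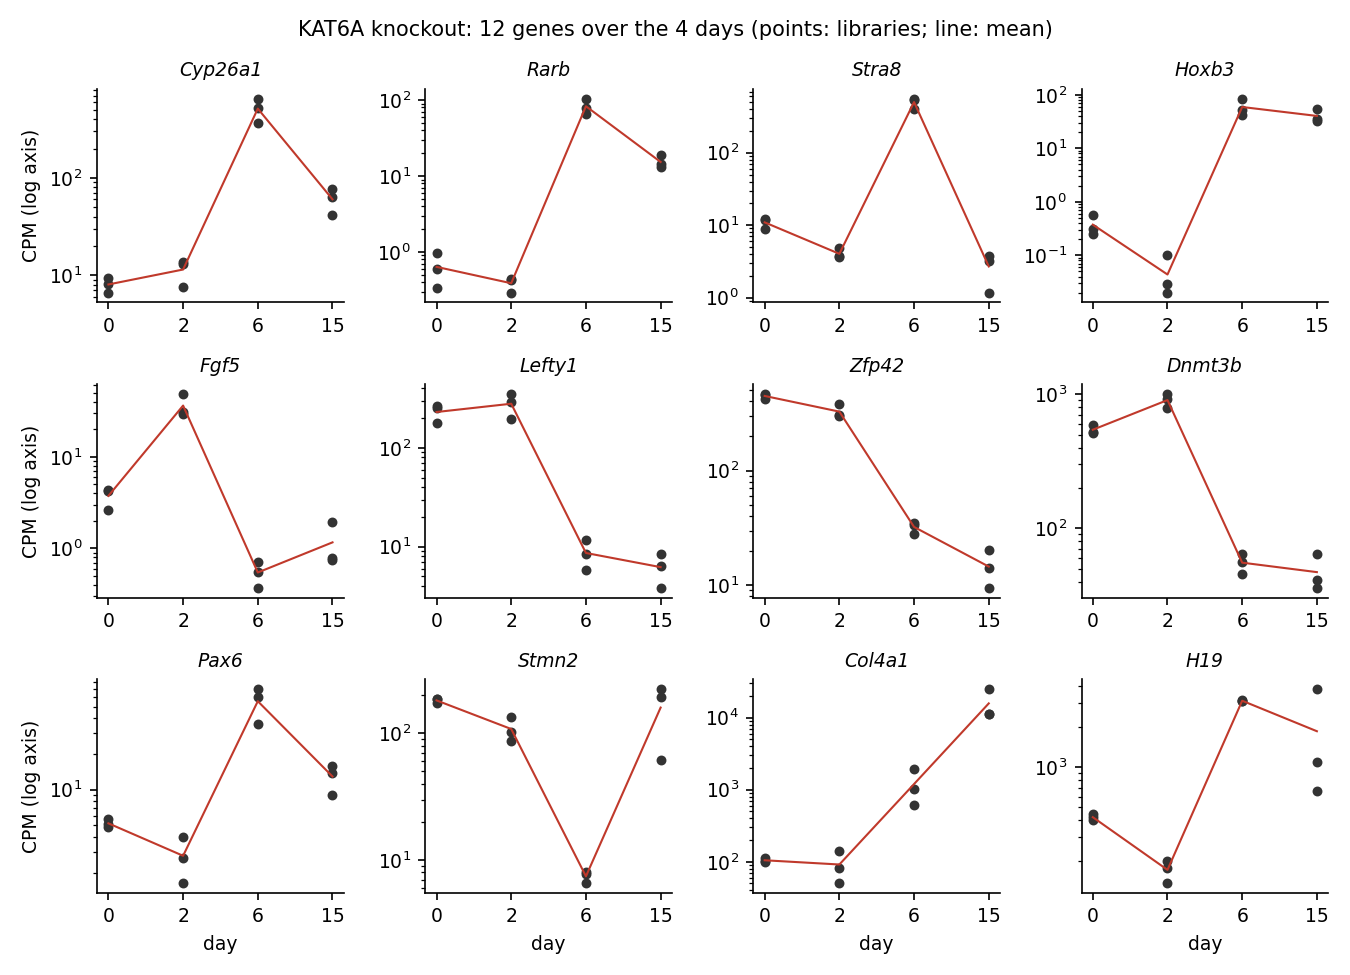
TMM-scaled CPM on log axes at days 0, 2, 6 and 15 of the KAT6A knockout for 12 genes, with 1 point per library (3 a day) and a line through the means. Stra8 peaks at day 6 (mean 500.2 CPM), Fgf5 at day 2 (36.2 CPM), Stmn2 dips at day 6 (7.44 CPM) and Col4a1 goes on rising to day 15.

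Whether the knockout changed between the days in the way the other genotypes did was asked in a fit of the 24 libraries of days 6 and 2. Between day 2 and day 6, 5454 genes rose and 4616 fell in the KAT6A knockout, 5056 and 4886 in the KAT6B knockout, 5181 and 4608 in the double knockout and 5189 and 4376 in E14. Across 21390 genes, which are not independent replicates, the log2 change of the KAT6A knockout had a Pearson correlation of 0.878 with that of E14 (Spearman 0.861), 0.84 with the KAT6B knockout (0.814) and 0.891 with the double knockout (0.886). The difference between the KAT6A knockout's change and E14's was not called for any gene: 0 of 21390 (0%) by edgeR, with 1090 (5.1%) at an unadjusted p under 0.05 and a lowest adjusted p of 0.887. Against the double knockout 0 genes (0%) were called and 569 (2.66%) had p under 0.05. Against the KAT6B knockout 0 (0%) were called and 2334 (10.9%) had p under 0.05, with a lowest adjusted p of 0.125. The median SE of a difference was 0.372 on the log2 scale against E14. With this error and 200 genes changed in a simulation, 4-fold differences were called in 82% of cases and 2-fold differences in 31%. Smaller differences would thus mostly have gone uncalled. The adjustment of p is stricter where fewer genes differ, and 0 genes were called in the data, so the shares there may be lower. The genes changed in the simulation had a mean of at least 1 CPM, so these shares do not cover genes with lower counts. Some replicate 1 libraries of E14 and of the KAT6B knockout stood apart in single genes. At day 6 Hoxd3 had 95.9 CPM in replicate 1 of E14, against 24.1 and 49.1 CPM in replicates 2 and 3. In the KAT6B knockout it had 34.4 CPM, against 3.87 and 13.0 CPM. Without both replicate 1 libraries of E14 or both of the KAT6B knockout the counts were again 0. DESeq2 called 3 genes against E14, 113 against the KAT6B knockout and 0 against the double knockout. In the simulated difference from E14, DESeq2 made 41 false calls and edgeR 6. Those arose with 200 changed genes, which loosen the cutoff, so they do not give the number of false calls among the 3. Whether the 3 calls are true was not tested.

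The 3 genes called by DESeq2 against E14 are named after their values were seen. Gata3 had 12.5, 13.4 and 16.4 CPM at day 6 in the KAT6A knockout and 13.6, 12.9 and 18.2 CPM in E14. At day 2 it had 2.26, 2.41 and 1.38 CPM in the KAT6A knockout and 0.497, 0.349 and 1.03 CPM in E14. The genotypes thus overlapped at day 6 and not at day 2, and the change was 1.72 ± 0.39 lower in the KAT6A knockout (edgeR adjusted p = 0.887, DESeq2 adjusted p = 0.0353). Chst1, a sulfotransferase gene, had 5.67, 7.16 and 4.46 CPM at day 6 in the KAT6A knockout and 4.33, 4.98 and 4.41 CPM in E14. At day 2 it had 5.05, 4.22 and 5.60 CPM in the KAT6A knockout and 11.6, 10.5 and 8.23 CPM in E14. Pcolce2, a collagen-processing enhancer, had 0.6305, 1.33 and 0.8915 CPM at day 6 in the KAT6A knockout and 2.29, 2.71 and 2.01 CPM in E14. At day 2 it had 15.6, 12.5 and 14.8 CPM in the KAT6A knockout and 12.0, 12.3 and 13.9 CPM in E14. The edgeR adjusted p was 0.887 for Chst1 and Pcolce2 too.

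Medians of some of the gene groups follow for the 4 genotypes, from this joint fit; differences between them were not tested by group. The median log2 change of the HoxB cluster was 7.93 in the KAT6A knockout, 8.41 in the KAT6B knockout, 8.58 in the double knockout and 9.07 in E14. That of the naive pluripotency genes was -1.82, -1.66, -1.74 and -1.09 in the same order, and that of the Nodal and primitive streak genes -4.38, -3.34, -3.45 and -3.58. For the retinoic acid synthesis, binding and breakdown genes it was 2.31, 2.88, 2.99 and 3.18. For the proneural factors it was 0.95 in the KAT6A knockout, 2.41 in the KAT6B knockout, 2.29 in the double knockout and 2.45 in E14. None of their 20 members was called against E14, and 2 had an unadjusted p under 0.05. Each group above had its lowest median in the KAT6A knockout, but other groups did not. In the order KAT6A, KAT6B and double knockout and E14, the HoxA cluster had 7.34, 7.59, 6.38 and 7.73. The midbrain and hindbrain regional factors had 2.08, 0.53, 1.23 and 1.26, and the core pluripotency genes -2.29, -2.71, -2.515 and -2.255. Cyp26a1 changed 0.68 ± 0.60 less in the KAT6A knockout than in E14, and Rarb 0.30 ± 0.45 less (SE), and neither difference was called over all genes. Kat6a itself changed by 0.78 in the KAT6A knockout and 0.36 in E14, a difference of 0.42 ± 0.19 (edgeR unadjusted p = 0.042), not called over all genes.

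**Figure D5:**
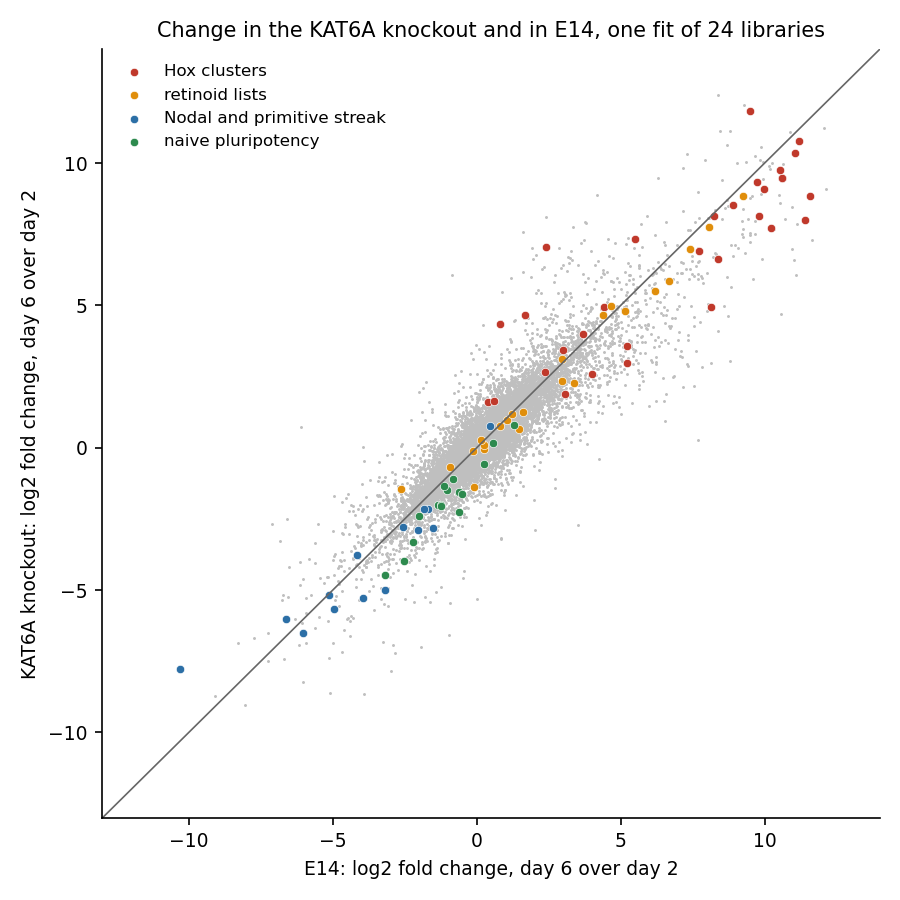
log2 change from day 2 to day 6 in the KAT6A knockout (vertical axis) and in E14 (horizontal axis), from 1 fit of 24 libraries. Grey points are genes tested both in this fit and in that of the knockout time course, with each gene symbol drawn once. The line marks equal change, and 4 groups are coloured. Genes lie along the line (Pearson 0.878 over all 21390 genes of the 24-library fit). The Hox and retinoid genes lie at the upper right and the Nodal and primitive streak genes at the lower left.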

How the data were processed

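Raw counts per gene, as whole numbers, came from a single table of 48 libraries that the authors deposited. Reads were aligned with HISAT2 to GRCm39, per the submitters' processing notes. Neither the counter, nor whether it used strand, nor the gene annotation is given in the sources used here. Per the labels, total RNA was depleted of ribosomal RNA and made into strand-specific libraries. Of 36983 entries, 48 repeat a gene identifier and were left out.

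The tests used edgeR 4.0.16 (R 4.3.3) with the expression filter by group (minimum count 10, total 15), TMM scaling and robust quasi-likelihood F tests with Benjamini-Hochberg adjustment, calls at adjusted p under 0.05. The fit held the 12 KAT6A knockout libraries of days 0, 2, 6 and 15, which share 1 estimate of the spread. Differences between genotypes were interaction contrasts in a fit of the 24 libraries of days 2 and 6. SEs were derived from the log2 change and its F value. Levels are TMM-scaled CPM, not corrected for length. Where a group had no count, the bound takes 3 counts over its libraries as the floor, which covers counting error alone.

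The comparison and the 38 gene lists were chosen with earlier results of these data known, so no list is independent evidence of its direction. Named genes are the 10 with the largest change per direction among called, symbol-named genes with at least 5 CPM and no overlap, up to 4 called members per list with the largest change, and Kat6a and Kat6b. Other list members are named as examples. Counts were also simulated with 200 changed genes, each with a mean of at least 1 CPM. Between the days edgeR found 86% of 4-fold and 48% of 2-fold changes, with 7 false calls among 20653 genes. All other genes were set level between the days there, while 45.9% were called in the data. These shares thus do not carry over to the comparison of the days. For the difference from E14 edgeR found 82% and 31%, with 6 false calls among 21390 genes. The shares for E14 hold with 200 changed genes and would be lower with fewer. DESeq2 made 43 false calls between the days and 41 for the difference from E14. Alternatives were other scaling, filters, DESeq2 1.42.0, a replicate term, other sets of libraries and each library left out. A few genes of these lists are not reported here by name.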

Additional observations from a re-analysis of the deposited data

How the results depend on the processing

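The count of genes called between the days (9471) stayed within 1.5 times under all alternatives: 9415 with DESeq2's size factors in edgeR, 9001 with no filter on low counts, 8845 with at least 1 CPM in 3 libraries, 9967 by DESeq2, 9175 with the 6 libraries alone and 10070 with all 24. Leaving out each library in turn gave 7971 to 8790. No gene called in the main fit had the opposite sign in any of them. Of 159 genes chosen by the naming rule, 152 kept their call in every alternative that tested them, and the other 7 (Cdh11, Dpf3, Elf5, Hbb-y, Hey1, Nkx2-2 and Nog) lost it in at least 1 of 13 alternatives. Some genes with low counts were not tested in all 13: of the 152, Cdx4, Hba-x and Mesp1 were tested in 11, and Bmp5, Cer1 and Zfp352 in 12. Of 988 counts of list members recomputed, 70 moved by over 1.5 times. Without day 6 replicate 2, 7 in place of 11 yolk sac and liver-type genes were called higher, and 3 in place of 5 fetal RNA-binding genes lower. Without day 6 replicate 3, 5 in place of 8 heart, blood and endothelium genes and 3 in place of 6 subunits of the BAF chromatin remodeller were called higher, and 4 in place of 7 glycolysis and hypoxia genes and 2 in place of 4 germline genes lower.

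The differences between genotypes depended on the tool. Against E14, DESeq2 called 3 genes and leaving out a library gave 0 to 1 (Gata3, -2.33, edgeR adjusted p = 0.0476, without E14 day 2 replicate 3). Against the KAT6B knockout, DESeq2 called 113 genes, 85% of them with the higher change in the KAT6A knockout. The cause was not tested. Without both replicate 1 libraries of E14 or of the KAT6B knockout, chosen after seeing the data because some stood apart, 0 genes were called, with 446 and 1550 at an unadjusted p under 0.05.

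Replicate numbers are shared across days, but same-numbered day 6 and day 2 libraries had residual correlations of only 0.0174, 0.0417 and 0.117. Day 2 replicates 1 and 3 correlated best with the day 6 library of their own number, and day 2 replicate 2 with day 6 replicate 1 (0.0938). With correlations this weak, the numbers were not taken as pairs. With a replicate block 9388 genes were called between the days, 0 against E14 and 3 against the KAT6B knockout (Epha4, -1.73, Bnc2, -1.83, and Atcay, 2.48). Depth limits genes near 0 at day 2, whose fold changes are bounds or move with single libraries.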

Other observations

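Observations in this section were chosen after the values were seen. Host genes of the miR-99/let-7/miR-125 clusters rose. Mir99ahg had 27.4, 33.4 and 58.0 CPM at day 6, against 0.146, 0.0511 and 0.170 CPM at day 2, a log2 change of 8.31 ± 0.76 (edgeR adjusted p = 3.16e-06). Mir100hg had 8.46, 9.17 and 16.2 CPM at day 6, against 0.961, 0.485 and 0.876 CPM at day 2, a log2 change of 3.87 ± 0.48 (edgeR adjusted p = 3.27e-05). In both genes day 6 replicate 3 was the highest library, and the days did not overlap. The mature miRNAs were not measured. The sequences below (RefSeq, GRCm38.p6) show what the hosts encode, 5′ to 3′ with the seed (bases 2 to 8) in capitals: miR-99a-5p from the chromosome 16 host and miR-100-5p from the chromosome 9 host share a seed, and miR-125b-5p is encoded in both.
miR-99a-5p: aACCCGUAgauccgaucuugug
miR-100-5p: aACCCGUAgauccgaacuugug
let-7c-5p: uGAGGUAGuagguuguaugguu
miR-125b-5p: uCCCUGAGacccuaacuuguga

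Of 16 tested Snhg genes, noncoding hosts of small nucleolar RNAs, 14 were lower at day 6 and 1 was higher, with a median log2 change of -1.49 (22.8% and 23.1% of all tested genes were lower and higher).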
